A study of Mus musculus with 6 samples.

Results

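The 10 genes described here encode the transcriptional regulator Prdm16 and factors that act with it, or near it, when fat cells take on a brown or beige identity: Ebf1, Ebf2 and Ebf3, Ehmt1, Zfp516, Irf4, Foxc2, Tbx15 and Mecom. They were taken from a gene expression table of 19445 loci by exact gene symbol, and where a symbol had several loci the one with the highest mean was used. All 10 genes had a row, and 9 of them were tested. RNA-Seq was performed on subcutaneous inguinal white fat (iWAT) of 3 Hlx transgenic mice, in which the aP2 (Fabp4) promoter drives the homeobox factor Hlx, and of 3 wild-type (WT) mice, all labelled as male and aged 12 weeks, with no other allele or treatment given for either group. The question was which genes differ in iWAT between the genotypes. Levels are given in FPKM, that is, mapped fragments scaled to the length of the transcript and to the size of the library, so that levels of different genes can be compared.

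The aP2 promoter is active in adipocytes of every fat depot and also in some macrophages, so the transgene acts outside iWAT as well, and the labels do not say which transgenic line the mice came from. Hlx itself ranged from 79.6 to 109.7 FPKM in transgenic mice and from 6.88 to 8.14 FPKM in WT mice, and reads of the transgene and of the endogenous gene cannot be told apart here. Although the labels give male mice, Xist, the RNA of the inactive X chromosome in females, was at 20.2 to 33.6 FPKM in all 6 samples, and 0 of 28 loci of the Y chromosome were above 0. The depth of the libraries, read from the steps of low values, differed from 0.690 to 1.41 relative to WT 3. The tissue was bulk, so that fewer cells of a type and less RNA per cell cannot be told apart in any result given here. Of 7 B lymphocyte markers with a row, 4 fell in transgenic mice and their sum was 127 to 162 FPKM in transgenic against 191 to 325 FPKM in WT mice, and of 6 macrophage and dendritic cell markers 3 fell, with sums of 76.8 to 98.1 against 130 to 164 FPKM. These calls were lost in 0 to 6 of 14 alternative fits. By the same test 7.03% of all 11692 tested loci fell and 11.6% rose. The 6 adipocyte markers summed to 28199 to 33447 FPKM in transgenic and 23904 to 29610 FPKM in WT mice. Most of that sum was Fabp4, at 24561 to 29363 against 19297 to 23539 FPKM, so it says little of the others. Log2 fold changes were 0.28 for Fabp4, 0.05 for Lipe, 0.04 for Plin1, -0.21 for Cidec, -0.32 for Lep and -0.85 for Adipoq. Of the 6 only Adipoq was called, and it fell, a call lost in 3 of 14 alternatives. Of 6 blood endothelial markers 1, Kdr, rose, a call lost in 6 of 14 alternatives. For T lymphocytes (6 markers), stroma (7), lymphatic endothelium (3), skeletal muscle (5) and epithelium (5) limma called 0, with 1, 2, 0, 1 and 1 marker at an unadjusted p below 0.05, and the sums of the genotypes overlapped. The skeletal muscle marker was higher and the rest were lower. Over all tested loci 16.8% were lower at that unadjusted p, and the share that was higher was not computed. No marker with a row was at 0 in all samples.

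Prdm16 is a zinc finger protein that binds other transcription factors and co-activates them at brown fat genes. It recruits the histone H3 lysine 9 (H3K9) methyltransferase Ehmt1, and its close relative Mecom (Evi1) shares its domain structure. Ebf2 marks brown and beige precursors and opens brown fat enhancers, and its relatives Ebf1 and Ebf3 bind the same DNA sequence. Zfp516, Irf4, Foxc2 and Tbx15 are transcription factors that have each been linked to thermogenic gene expression or to the identity of a fat depot.

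Prdm16 and Mecom are read from long genes on the minus strand, and Mecom has 2 separate rows in the table, so the DNA before their start sites is shown first. The Prdm16 row spans chr4:154316125-154637399. The Mecom row with the higher mean spans chr3:29951296-30013204 and ends at the downstream start of the gene. The other Mecom row, chr3:30236569-30509487, lies just inside the upstream start. The 120 bases before each start, from RefSeq on GRCm38.p6 (mm10), lie at chr4:154636874-154636993 for Prdm16, chr3:30509760-30509879 for the upstream Mecom start and chr3:30013205-30013324 for the downstream one, all on the minus strand. They are written 5′ to 3′, and capitals mark the longest run that Prdm16 and the upstream Mecom start share.
Prdm16: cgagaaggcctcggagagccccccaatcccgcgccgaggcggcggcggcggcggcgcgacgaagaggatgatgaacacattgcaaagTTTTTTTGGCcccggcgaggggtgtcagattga
Mecom, upstream start: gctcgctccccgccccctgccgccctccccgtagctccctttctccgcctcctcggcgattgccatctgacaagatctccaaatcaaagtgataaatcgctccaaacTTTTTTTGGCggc
Mecom, downstream start: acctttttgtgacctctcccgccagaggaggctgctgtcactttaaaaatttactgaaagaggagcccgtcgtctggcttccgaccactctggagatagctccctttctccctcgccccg
The capital run of 10 bases ended 23 bases before the Prdm16 start and 3 bases before the upstream Mecom start, and it occurred on either strand in 0.10% of 32851 promoter windows of 300 bases. The downstream Mecom stretch did not hold it. A further run of 24 bases began 10 bases into the Prdm16 transcript and 27 bases into the upstream Mecom transcript, counting the start as 1, and it was in no other window of the set.

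The level of Prdm16 was higher in iWAT of transgenic mice. Prdm16 was at 4.24, 2.53 and 2.98 FPKM in transgenic mice 1 to 3, and at 1.79, 1.51 and 1.31 FPKM in WT mice 1 to 3. The lowest transgenic mouse was above the highest WT mouse, and transgenic 1 stood highest of the 6. Means were 3.25 ± 0.887 against 1.54 ± 0.240 FPKM (SD, n = 3 each), a ratio of 2.12. On the scale used for testing, log2(FPKM + 1), the log2 fold change was 0.73 with a standard error (SE) of 0.17 (limma, Benjamini-Hochberg adjusted p = 0.0258 over 11692 loci). An exact permutation test over the mice gave p = 0.1, which is the smallest p that 3 against 3 mice allow. The call did not hold in 3 of the 6 fits that left out a mouse. It was lost without transgenic replicate 3 (limma, adjusted p = 0.0658), without WT replicate 2 (0.0711) and without WT replicate 3 (0.0862), with a log2 fold change between 0.57 and 0.85 whichever mouse was left out. In WT iWAT Prdm16 was an RNA of low level, above 44.3% of all loci by mean FPKM. The library was not strand specific, and the opposite strand of Prdm16 holds 3 annotated genes, 1 of which reaches over a Prdm16 exon, so their reads cannot be told apart. The same limit holds for other genes described here. Annotated genes reach over an exon of Ebf2 (2), Ebf3 (2) and Mecom (1) on the opposite strand, and of Ehmt1 (1) and Foxc2 (1) on the same strand.

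**Figure D1:**
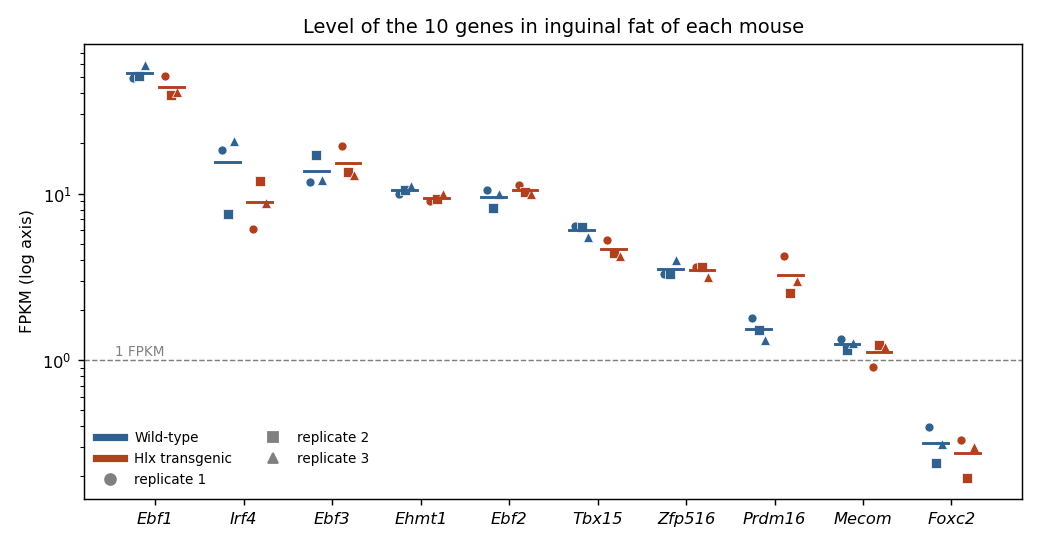
FPKM (log axis) of the 10 genes in each of the 3 WT (blue) and 3 Hlx transgenic (red) mice, ordered by WT mean. Each point is a mouse, its shape gives the replicate number and bars are group means; the transgenic points of Prdm16, 2.53 to 4.24 FPKM, all lie above the WT points, and Foxc2 lies under the dashed line at 1 FPKM in every mouse.

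Mecom, the closest relative of Prdm16, was not called. Its main row was at 0.913, 1.22 and 1.2 FPKM in transgenic mice and 1.34, 1.14 and 1.27 FPKM in WT mice. These ranges overlapped, with a log2 fold change of -0.10 and a 95% interval from -0.38 to 0.19 (limma, adjusted p = 0.596). The other row, next to the upstream start, was between 0 and 0.173 FPKM in the 6 samples, with WT 2 listed at 0. The main row had a mean 16.7 times higher, and adding both rows gave a log2 difference of -0.11. Prdm16 therefore made up 82.3, 67.5 and 71.3% of the summed Prdm16 and Mecom FPKM in transgenic mice and 57.2, 56.9 and 50.7% in WT mice. The groups did not overlap, and the difference of 18.8 percentage points had an exact permutation p of 0.1, the smallest possible. No stretch of 100 bases, the read length, was shared between annotated Prdm16 and Mecom transcripts, whose longest common run was 36 bases.

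The EBF genes showed no call in either direction. Ebf2 (chr14:67233292-67430916) was at 11.3, 10.3 and 9.96 FPKM in transgenic and at 10.5, 8.21 and 9.97 FPKM in WT mice. The groups overlapped, and the log2 fold change of 0.13 had a 95% interval from -0.12 to 0.38 (limma, adjusted p = 0.411), so that the data leave room for a change from 0.920-fold to 1.3-fold of FPKM + 1. Ebf3 (chr7:137193671-137314445), which is less studied in fat, was at 19.3, 13.4 and 12.9 FPKM in transgenic and 11.8, 17.1 and 12.0 FPKM in WT mice, with 1 high mouse in each group. Its log2 fold change of 0.14 (interval -0.31 to 0.60; limma, adjusted p = 0.624) turned to -0.03 without transgenic replicate 1.

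Ebf1 (chr11:44617302-45008092), which is needed for B lymphocyte development and also takes part in adipocyte differentiation, had the highest level of the 10 genes. It was at 51.0, 39.0 and 40.8 FPKM in transgenic mice and 49.5, 50.8 and 59.5 FPKM in WT mice. Transgenic mouse 1 lay within the WT range and the other transgenic mice below it. The log2 fold change was -0.29 with an interval from -0.59 to 0.01 (limma, adjusted p = 0.149), and the call was not made in any of 14 alternatives. Ebf1 made up 62.5, 62.3 and 64.1% of the summed EBF FPKM in transgenic mice and 69.0, 66.7 and 73.0% in WT mice. The groups did not overlap, with a difference of -6.61 percentage points (exact permutation p = 0.1, the smallest possible). The shares of Ebf1 and Ebf3 were not among the planned comparisons. The share of Ebf2 was 13.8, 16.4 and 15.6% in transgenic and 14.6, 10.8 and 12.2% in WT mice (difference 2.74 points, exact permutation p = 0.2), and these ranges overlapped. That of Ebf3 was 23.7, 21.4 and 20.2% in transgenic and 16.4, 22.5 and 14.8% in WT mice (difference 3.88 points, exact permutation p = 0.3), also with overlap. The EBF sum was 69.3 ± 10.6 against 76.5 ± 4.89 FPKM (exact permutation p = 0.4). The B lymphocyte markers given above moved between genotypes in the same direction as the Ebf1 level and share. Among WT mice the order by Ebf1 level was that of the B lymphocyte sum, but among transgenic mice it was the reverse. The part of B lymphocytes in the Ebf1 level or share was not tested. Transcripts of Ebf1, Ebf2 and Ebf3 had no stretch of 100 bases in common, with longest shared runs of 17 to 24 bases.

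**Figure D2:**
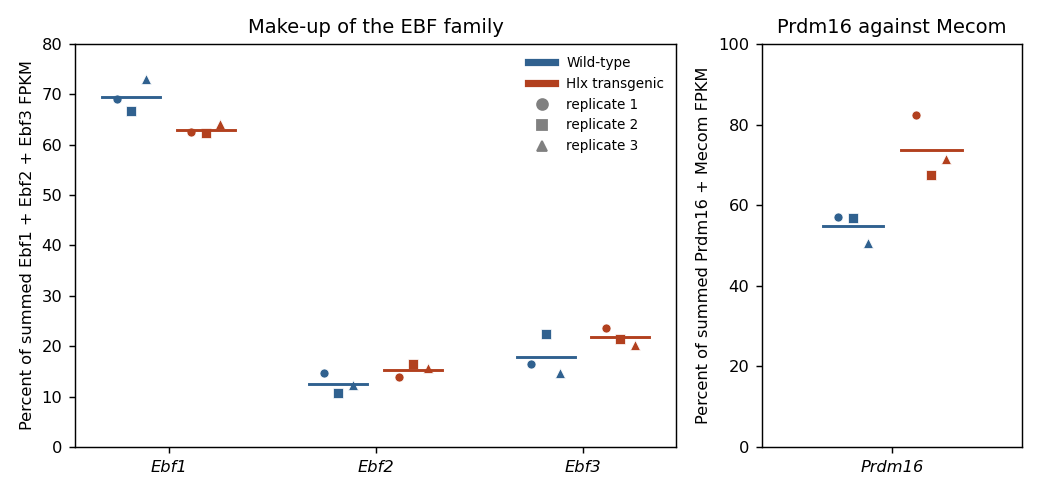
Left, the percent of summed Ebf1, Ebf2 and Ebf3 FPKM taken by each gene; right, the percent of summed Prdm16 and Mecom FPKM taken by Prdm16, in WT (blue) and transgenic (red) mice, with 1 point a mouse and bars at the group means. The Ebf1 share was at most 64.1% in transgenic mice and at least 66.7% in WT mice, the Ebf2 shares overlapped, and the Prdm16 share was at least 67.5% in transgenic mice.

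Ehmt1 (chr2:24790060-24919591), the H3K9 methyltransferase that Prdm16 binds, was at 9.0, 9.33 and 9.94 FPKM in transgenic mice and 9.96, 10.6 and 11.1 FPKM in WT mice. All transgenic values were below all WT values, by a narrow margin between 9.94 and 9.96 FPKM. The log2 fold change of -0.15 (SE 0.08; limma, adjusted p = 0.220) was not called. Zfp516 (chr18:82910879-83005314), a zinc finger factor that binds the Ucp1 promoter and is induced by cold, was at 3.60, 3.63 and 3.14 FPKM in transgenic and 3.3, 3.29 and 4.01 FPKM in WT mice. The groups overlapped, and the interval of its log2 fold change ran from -0.27 to 0.22 (limma, adjusted p = 0.897).

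Irf4 was the gene with the widest spread between mice. Irf4 (chr13:30749226-30766965) acts with PGC-1α on thermogenic genes in adipocytes, and B lymphocytes and macrophages also express it. It was at 6.16, 11.9 and 8.73 FPKM in transgenic mice and at 18.3, 7.49 and 20.7 FPKM in WT mice. WT 1 and WT 3 were above all transgenic mice, but WT 2 lay within their range. The log2 fold change was -0.66 with a 95% interval from -1.55 to 0.22 (limma, adjusted p = 0.246). Without WT replicate 2 it was -1.09 (limma, adjusted p = 0.0396), and the other 13 of 14 alternatives did not call it. Leaving out the WT mouse that lies within the transgenic range widens the difference by construction. The 7 B lymphocyte markers summed to 191, 232 and 325 FPKM in WT 1 to 3 and to 127, 162 and 141 FPKM in transgenic 1 to 3. The 6 macrophage and dendritic cell markers summed to 141, 130 and 164 FPKM in WT 1 to 3 and to 76.8, 98.1 and 78.5 FPKM in transgenic 1 to 3. WT 2, lowest of the WT mice in Irf4, was lowest in the macrophage and dendritic cell sum but not in the B lymphocyte sum. Within each genotype the order of the mice by Irf4 was that of the macrophage and dendritic cell sum, and among transgenic mice also that of the B lymphocyte sum. This order was not particular to those cells. The lymphatic endothelial sum had it in both genotypes (31.4, 25.6 and 44.9 FPKM in WT 1 to 3, 15.9, 31.2 and 24.4 FPKM in transgenic 1 to 3). The T lymphocyte and skeletal muscle sums had it among transgenic mice. The part of lymphoid or myeloid cells in the Irf4 level was not tested.

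**Figure D3:**
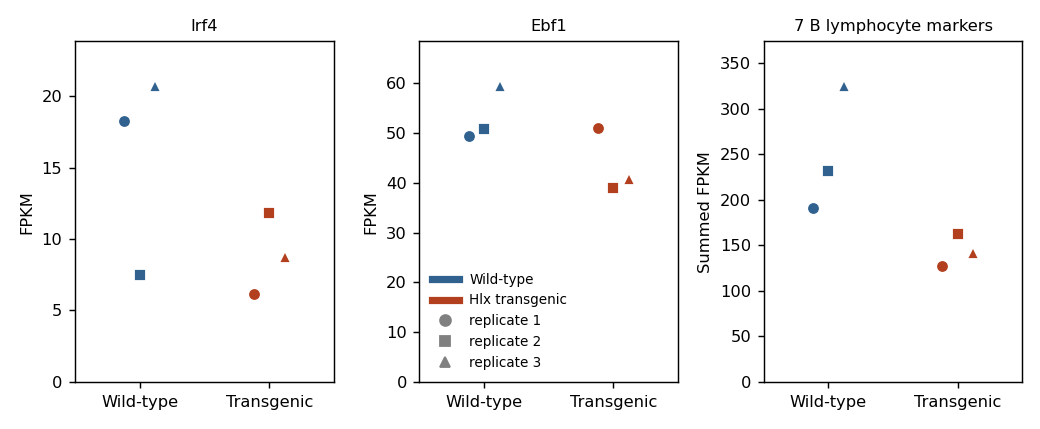
FPKM of Irf4 (left) and Ebf1 (middle) and the summed FPKM of 7 B lymphocyte markers (right) in each WT (blue) and transgenic (red) mouse, with point shapes for the replicate number and axes from 0. The marker sums separate the genotypes (127 to 162 against 191 to 325 FPKM), whereas Irf4 in WT 2 (7.49 FPKM) and Ebf1 in transgenic 1 (51.0 FPKM) lie within the range of the other genotype.

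Tbx15 (chr3:99253760-99354260), a T-box factor that marks certain fat depots, brown fat among them, was lower in every transgenic mouse than in any WT mouse. It was at 5.28, 4.37 and 4.2 FPKM in transgenic mice and 6.40, 6.31 and 5.49 FPKM in WT mice. The log2 fold change of -0.33 (SE 0.11) had an unadjusted p of 0.0161 and an adjusted p of 0.0694 (limma, Benjamini-Hochberg), and so was not called. With sample weights it was -0.40 (limma, adjusted p = 0.0223) and without transgenic replicate 1 it was -0.42 (limma, adjusted p = 0.0467), both called. Foxc2 (chr8:121116171-121118894), a forkhead factor that can raise the response of fat to adrenergic signals, was at 0.332, 0.195 and 0.30 FPKM in transgenic and 0.393, 0.241 and 0.311 FPKM in WT mice. It stayed under the limit of 1 FPKM for testing. In a fit without that limit, over 15860 loci, its log2 fold change was -0.04 (limma, adjusted p = 0.678).

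Of the 9 tested genes, 1 (Prdm16) was higher in transgenic mice and 0 were lower by limma at an adjusted p below 0.05, which is 11.1% of them. Among all 11692 tested loci the same rule called 18.6%, with 11.6% higher and 7.03% lower. Without adjustment, 1 gene (Tbx15) was lower at p below 0.05, where 16.8% of all loci were. Groups did not overlap for 3 of 9 genes (33.3%), 1 higher and 2 lower (Ehmt1 and Tbx15), against 42.9% of all loci, 22.8% higher and 20.1% lower. Taken in both directions, each share of the 9 genes differed from that of all loci by less than 1 gene, which is 11.1% of them. These shares are therefore not read as a difference. The 2 genes without overlap in the lower direction were close to the share over all loci. The median log2 fold change was -0.10 for the 9 genes and -0.01 for all loci, and the median size of the change was 0.15 against 0.21.

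**Figure D4:**
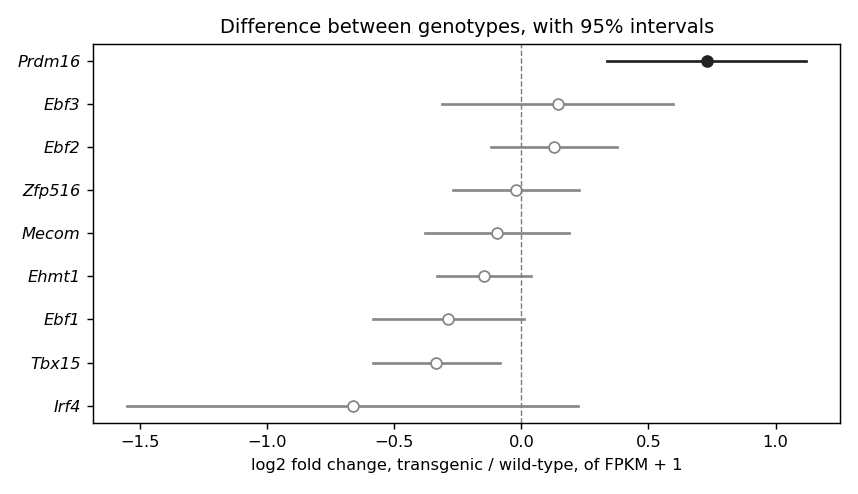
Log2 fold change of FPKM + 1, transgenic over WT, of the 9 tested genes with 95% intervals from limma; the filled point marks the gene called at an adjusted p below 0.05. Prdm16 stands at 0.73 with its interval above 0, and Irf4 has the widest interval, from -1.55 to 0.22.

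By mean FPKM the order in WT iWAT was Ebf1, Irf4, Ebf3, Ehmt1, Ebf2, Tbx15, Zfp516, Prdm16, Mecom and Foxc2. Irf4 and Ebf3, Ehmt1 and Ebf2, and Prdm16 and Mecom were neighbours with overlapping ranges. In transgenic iWAT the order was Ebf1, Ebf3, Ebf2, Ehmt1, Irf4, Tbx15, Zfp516, Prdm16, Mecom and Foxc2, and here the ranges of Ehmt1 and Irf4 and of Zfp516 and Prdm16 overlapped. Prdm16 thus overlapped Mecom in WT mice and Zfp516 in transgenic mice.

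The 5 tested loci whose pattern over the 6 samples was nearest to that of Prdm16 were Efha2, Fam36a, Popdc2, Higd1a and Coq5. Likeness was the root mean square difference of log2(FPKM + 1) after centring each gene, and it ranged from 0.034 for Efha2 to 0.062 for Coq5. Efha2 was at 6.50, 3.96 and 4.59 FPKM in transgenic and 3.09, 2.41 and 2.23 FPKM in WT mice. Its likeness to Prdm16 over these mice follows from how it was picked. For Ebf2 the nearest were Tbx18, Rusc2, Zfp955b, Adck2 and Cenpl, with differences of 0.032 to 0.051. Tbx18, itself a T-box gene, was at 1.73, 1.43 and 1.41 FPKM in transgenic and 1.40, 1.02 and 1.32 FPKM in WT mice (log2 fold change 0.17; limma, adjusted p = 0.364).

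Of 14 partners of Prdm16, namely proteins that bind it, are co-activated by it or set its stability, 5 rose and 9 did not pass the test (median log2 fold change 0.22). By the same test 11.6% of all tested loci rose and 7.03% fell, and these shares are the background for the lists below as well. Ppara, the receptor that drives fatty acid oxidation, was at 27.1, 27.8 and 43.0 FPKM in transgenic and 6.17, 2.54 and 4.85 FPKM in WT mice, a log2 fold change of 2.63 (SE 0.29; limma, adjusted p = 0.00192). The coactivators Ppargc1b (log2 fold change 1.49) and Ppargc1a (0.51) and the early adipogenic factor Cebpb (0.57) also rose, and the calls of these 4 genes were made in all 14 alternatives. Cul2, the scaffold of the ubiquitin ligase that degrades Prdm16, rose by 0.42 (limma, adjusted p = 0.0265), a call lost in 4 of 14 alternatives, whereas its substrate receptor Appbp2 was at 0.01 (limma, adjusted p = 0.958). Pparg, the master regulator of adipocyte differentiation, was at -0.02 with values from 95.7 to 193 FPKM. The corepressors Ctbp1 and Ctbp2 were at 0.06 and 0.05, with values that overlapped between the genotypes.

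Of 9 tested cofactors of the EBF proteins, 1 rose, where 11.6% of all loci did, and 8 did not pass (median -0.02). Smarcd3, a subunit of the BAF chromatin remodelling complex, was at 11.0, 8.96 and 9.79 FPKM in transgenic and 7.16, 7.21 and 6.01 FPKM in WT mice, a log2 fold change of 0.48 (limma, adjusted p = 0.0215), and lost its call in 3 of 14 alternatives. Dpf3, the BAF subunit that Ebf2 is known to work with, was at 4.16, 2.1 and 2.05 FPKM against 1.33, 1.45 and 1.27 FPKM, without overlap and without a call (log2 fold change 0.64; limma, adjusted p = 0.0768). Zfp521 and Zfp423, zinc finger proteins that bind EBF factors and hold back their activity, had log2 fold changes of -0.43 (limma, adjusted p = 0.0548) and -0.13 (0.542).

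The 12 tested enzymes and partners of H3K9 methylation besides Ehmt1 all had log2 fold changes below 0, from -0.37 to -0.01, with a median of -0.15. Among all 11692 tested loci 6029 were below 0. The list mixes methyltransferases and their partners with demethylases, so it has no single direction of effect on the mark. Only Phf8, a demethylase of methylated H3K9, passed the test (-0.37; limma, adjusted p = 0.023), and its call was lost in 4 of 14 alternatives. Ehmt2, which forms a dimer with Ehmt1, was at 33.4, 35.7 and 33.6 FPKM in transgenic and 38.8, 39.6 and 38.4 FPKM in WT mice (log2 fold change -0.18; limma, adjusted p = 0.109). The groups did not overlap for Ehmt2, as for Ehmt1, and the same was so for 20.1% of all tested loci in the lower direction. Summed over the list, FPKM was 143 to 144 in transgenic and 158 to 169 in WT mice. The summed B lymphocyte and the summed macrophage and dendritic cell markers were also lower in transgenic mice without overlap, and their part in these sums was not tested.

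Among the tested relatives of the 10 genes, limma called only interferon regulatory factors, where the share of all loci called lower was 7.03%. Of 7 other interferon regulatory factors, Irf2 (log2 fold change -0.44; limma, adjusted p = 0.0171) and Irf5 (-0.59; 0.0429) fell and 5 did not pass. All 7 values were below 0, where 6029 of 11692 tested loci were, with a median of -0.43. The call of Irf2 was lost in 2 of 14 alternatives and that of Irf5 in 7. Irf8, a factor of myeloid and B cells, was at 14.4, 22.8 and 18.1 FPKM in transgenic and 23.5, 25.6 and 37.5 FPKM in WT mice (-0.61; limma, adjusted p = 0.0865), and the part of such cells in the Irf values was not tested. Of 8 other Prdm genes limma called 0, and 0 were under 0.05 without adjustment. Of 9 other T-box genes limma called 0, and 2 were higher at an unadjusted p below 0.05, Tbx2 (0.45; limma, adjusted p = 0.0927) and Tbx5 (0.48; 0.0506). The share of all loci higher at that unadjusted p was not computed, so this count has no background. Foxc1, the paralog of Foxc2, was between 0.248 and 0.726 FPKM and was not tested.

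Of 9 tested brown fat genes known to rise with Prdm16 activity, 8 rose here, against 11.6% of all loci, with a median log2 fold change of 2.98. Like the other lists, this one was chosen with earlier results of these data known, so the comparison with all loci is not a test. Whether these genes rose because of Prdm16 was not tested. Ppara and Ppargc1a stand in this list and among the partners. Ucp1, the uncoupling protein, was at 634, 541 and 600 FPKM in transgenic and 57.8, 17.5 and 35.5 FPKM in WT mice (log2 fold change 4.12; limma, adjusted p = 0.00106). Cox7a1, a muscle and brown fat isoform of a cytochrome c oxidase subunit (4.07), the lipid droplet protein Cidea (3.76) and the proton channel Otop1 (3.14) rose as well. Dio2, the thyroid hormone deiodinase, was the exception, at 0.521, 3.22 and 1.33 FPKM in transgenic and 3.65, 0.953 and 2.53 FPKM in WT mice (-0.37; limma, adjusted p = 0.576). All 3 tested white fat genes fell: Agt, which encodes angiotensinogen (-3.27), the adipokine resistin, Retn (-2.02), and Psat1, an enzyme of serine synthesis (-1.07).

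The myogenic regulators that Prdm16 and Ehmt1 restrain in brown precursors were near 0. The 6 genes Myod1, Myog, Myf5, Myf6, Pax3 and Pax7 summed to 0.066 to 0.943 FPKM in transgenic and 0.024 to 0.302 FPKM in WT mice, 0 of them reached the limit for testing, and Myf5 and Pax7 were listed at 0 in every sample. Transgenic 2 and WT 2 were the highest of their groups, and the same mice were highest in 5 skeletal muscle markers, which summed to 473 and 92.4 FPKM there. The part of muscle tissue in these values was not tested. Of 11 interferon response genes, a group that Prdm16 is known to repress, limma called 0, and 0 were under 0.05 without adjustment. Their sums were 140 to 253 FPKM in transgenic and 187 to 230 FPKM in WT mice.

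**Figure D5:**
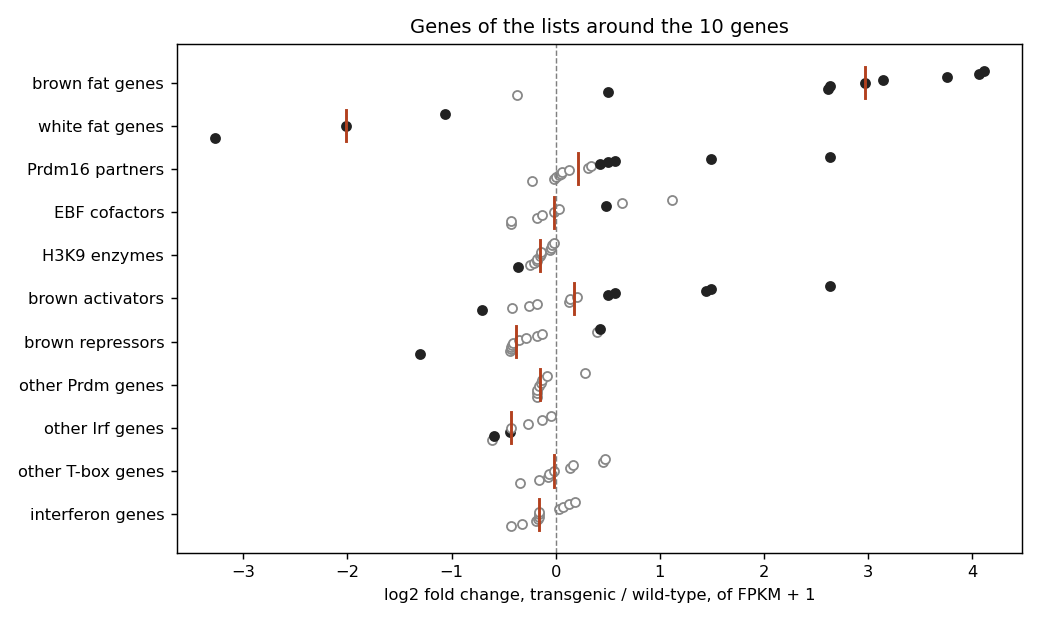
Log2 fold change of FPKM + 1, transgenic over WT, of every tested gene in 11 lists; filled points passed the limma test at an adjusted p below 0.05, open points did not, and the red line is the median of the list. Brown fat genes (median 2.98) and white fat genes (median -2.02) lie far from 0, and the medians of the regulator lists lie between -0.43 and 0.22.

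Among other regulators that promote the brown programme, 5 of 12 rose, Lhx8 fell and 6 did not pass. Over all tested loci 11.6% rose and 7.03% fell. Besides the 4 Prdm16 partners already named, Esrrg, a nuclear receptor for oxidative genes, rose from 0.341, 0.473 and 0.415 FPKM in WT to 3.62, 2.07 and 2.95 FPKM in transgenic mice (log2 fold change 1.44; limma, adjusted p = 0.00237). Lhx8, a homeobox gene used as a brown fat marker, fell to 0.709, 0.850 and 0.762 FPKM from 2.33, 1.57 and 1.86 FPKM (-0.71; limma, adjusted p = 0.0134). Zic1, a marker of classical brown fat, was listed at 0 in all samples but WT 2, which had 0.0084 FPKM. Of 12 regulators that restrain the programme, Nrip1 fell (-1.30; limma, adjusted p = 0.0273), Rb1 rose (0.43; 0.031) and 10 did not pass, with a median of -0.38. The call of Nrip1, a corepressor of nuclear receptors, was lost in 5 of 14 alternatives, and that of the retinoblastoma gene Rb1 in 6.

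Promoter windows of chromosome 18, where Zfp516 lies, were left out of the search for the 10 genes, so that Zfp516 was not examined. The other windows in the RefSeq set matched 6 of the 10 genes, Prdm16, Mecom, Ebf1, Ebf3, Ehmt1 and Irf4. They gave 8 windows, each from 250 bases before to 50 after a start. The letters TAATTA, a core that many homeodomain proteins bind, were searched on both strands and occurred in none of the 8, where 5.29% of all windows held them. This says only that these letters are not in these windows. The EBF core CCCNNGGG was in the windows of Ebf3 and of the downstream Mecom start (13.7% of all windows), and the IRF core GAAANNGAA in a window of Ebf1 and that of the upstream Mecom start (8.56%). Base composition differed between the windows, from 36.7% GC in a window of Ebf1 to 77.0% in that of Ebf3, with 61.0% for Prdm16 and a median of 52.7% over all windows.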

How the data were processed

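RNA-Seq of iWAT from 3 Hlx transgenic and 3 WT mice, grouped by sample title, was used. The authors mapped 100-base single-end reads to mm10 with TopHat2 2.0.9 and Bowtie2 2.1.0 and quantified them with Cufflinks 2.2.1, after CASAVA 1.8.2 (versions from the submitters' processing notes). The gene annotation is not given in the sources used here. The deposited values are FPKM per locus and sample, with no counts, so counting intervals were not formed. Locus starts were read as counted from 0 and are given counted from 1.

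Loci with a mean FPKM above 1 in at least 1 genotype (11692) were tested on log2(FPKM + 1) with limma 3.58.1 in R 4.3.3 (trended variance, two-sided, Benjamini-Hochberg adjustment, called at 0.05). This offset understates changes of low genes. Single values were tested with two-sided exact permutation tests over 20 arrangements. The procedure was checked on simulated data, with changes set only in genes of a higher level than Prdm16. That check therefore does not cover genes as low as Prdm16. The study's methods give 3 mice per genotype with separate libraries, so p-values measure the spread between mice.

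The 10 genes and 22 gene lists (families, partners, targets and cell markers) were chosen with earlier results of these data known, and the limit of 1 FPKM follows the study's filter. Named are the 10 genes, their paralogs and partners, up to 4 called genes of largest change a list, members of lists of up to 6, and the 5 loci nearest in pattern to Prdm16 and Ebf2. Genes without a row of their own (merged loci, such as Hnrnpu and Irf9) were not used. Gene spans and strands come from GENCODE vM21, and promoters from RefSeq. Alternatives were pseudocount, filter, normalization, variance model, sample weights, replicate block and leaving out each mouse.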

Additional observations from a re-analysis of the deposited data

How the results depend on the processing

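Over 8 other settings (pseudocount 0.1, no filter, a limit on the mean over both genotypes, scaling by quantiles or by median ratios, variance without trend, sample weights and replicate block) Prdm16 stayed called, with a log2 fold change from 0.67 to 1.01 and limma adjusted p from 0.0136 to 0.0447. With the replicate block it was 0.73 (limma, adjusted p = 0.0306), and the block changed no other call among the 10 genes, while Irf5, Rb1 and the cell markers Cr2, Emr1, Csf1r and Kdr lost theirs. Replicate numbers gave no sign of pairing: deviations of same-numbered mice correlated at 0.013, 0.034 and 0.070, and 0 of 6 samples correlated best with their own number. Leaving out each mouse in turn gave a Prdm16 log2 fold change from 0.57 to 0.85, 0 to 1 of the genes called higher and 0 to 1 called lower; sample weights called 1 lower, Tbx15. Over all loci, leaving out a mouse gave 780 to 1295 loci higher and 329 to 906 lower, against 1352 and 822 with all 6; fewer samples were then tested. Directions turned for 2 genes that were never called. The log2 fold change of Ebf3 was -0.0415 with sample weights and from -0.0320 to 0.306 when a mouse was left out. That of Zfp516 was 5.72e-05 with quantile normalization and from -0.0601 to 0.0521 when a mouse was left out. The cause was not tested. Quantile normalization and median-ratio scaling moved the median of all loci to -0.03 and -0.01 from -0.01. Only FPKM were used, so the precision that depth gives each value is unknown. Adding both Mecom loci was chosen after seeing the data, and the shares of Ebf1 and Ebf3 were not planned.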
